A study of Arabidopsis thaliana with 12 samples.

Results

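A group of 85 probe sets, of 22746 measured, gave higher levels both with abscisic acid (ABA) and under supplemental far-red light in the aerial parts of Arabidopsis thaliana seedlings. All 12 arrays came from 10-day-old plants, which had grown for 9 days at 22 °C under constant white light before a treatment of 24 hours. The 4 groups, with 3 arrays each, were white light with supplemental far-red light and ABA (far-red with ABA), white light with supplemental far-red light (far-red), white light with ABA, and white light alone. The labels name no strain, genotype or mutant allele, and they print the ABA dose as 1 mM and the intensities as 80 for white and 6 for far-red light in mmol per square metre and second. Whether those prefixes are the intended ones could not be checked. The labels describe the arrays of a group as biological replicates, and the p-values refer to the spread among those arrays.

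The members were chosen by their measured values on the log2 scale, where 1 unit is a 2-fold difference. The averaged ABA effect is the mean of the groups with ABA minus the mean of those without, and the averaged far-red effect is the mean of the groups with far-red light minus the mean of those without. A member had both effects at 0.3 or more and a highest group mean of 5 or more. The thresholds were met by 87 probe sets, 0.382% of all, and the 2 left out by name were WES1 and AT3G02480. No plastid-encoded gene met them. Since these 2 effects chose the members, every value of them below, and every difference between 2 of the groups, is a description without a test. The interaction, which is the ABA effect under far-red light minus the ABA effect in white light, was no part of the 2 effects and was tested. The level threshold did touch it: in 7 members, among them AT1G74010 and AT4G09500, only the mean of far-red with ABA, a term of the interaction, reached 5.

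ABA is the hormone of drought and seed maturation. It binds receptors that then block protein phosphatases, which frees kinases that switch on transcription factors. Supplemental far-red light mimics shade from neighbouring leaves, which absorb red light and pass far-red light on. Phytochrome B then turns to its inactive form, PIF transcription factors accumulate, and stems and petioles lengthen as auxin is made. Starch in leaves is built from ADP-glucose, and sucrose leaves the leaf through the phloem.

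Of the 85 members, 30 are listed with 1 gene, 1 with several genes and 54 are unlisted in the annotation used here. Of the 30, 9 have a symbol other than a locus number, and roles are given below for those and for a pair of loci that RefSeq names as NPF transporters. The other loci are called by number only. The median log2 value of an array was 5.45 to 5.62, and 60.6% to 67.2% of probe sets were called present on an array. The root hair genes EXPA7 and EXPA18 were called present on no array, and the phloem transporter gene SWEET11 lay between 10.5 and 10.9 on every array. The lists held 3 measured genes of the lineage that forms stomata, SPCH, FMA and MUTE. SPCH fell by 0.41 with ABA (limma adjusted p = 0.000297) and rose by 0.24 with far-red light (limma adjusted p = 0.0284). FMA and MUTE passed 0.05 for neither effect. In bulk tissue, fewer cells of a type and less RNA per cell cannot be told apart.

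The ABA effect was the larger of the 2 in 63 members and the far-red effect in 22. The averaged ABA effect had a median of 0.53 over the members, between 0.31 and 4.08, and the averaged far-red effect a median of 0.39, between 0.30 and 1.97. Both effects reached 0.5 in 7 members and both reached 1 in 1, AT1G80130. Just inside the ABA threshold lay 254520_at, 263963_at and AT1G48100 at 0.31 each, and just outside it AT4G32920, AT5G40690 and AT1G48090 at 0.30 each. Just inside the far-red threshold lay AT1G55680, 256022_at and 256861_at at 0.30, 0.30 and 0.31, and just outside it 259403_at, AT1G67360 and AT3G14067 at 0.30 each. The edges of the level threshold were AT1G74010, 260666_at and 254390_at inside, with highest means of 5.00, 5.06 and 5.15, and AT4G26950, AT4G21650 and 245275_at outside, with 4.98, 4.93 and 4.80. Values on both sides of each threshold lay close together.

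**Figure D1:**
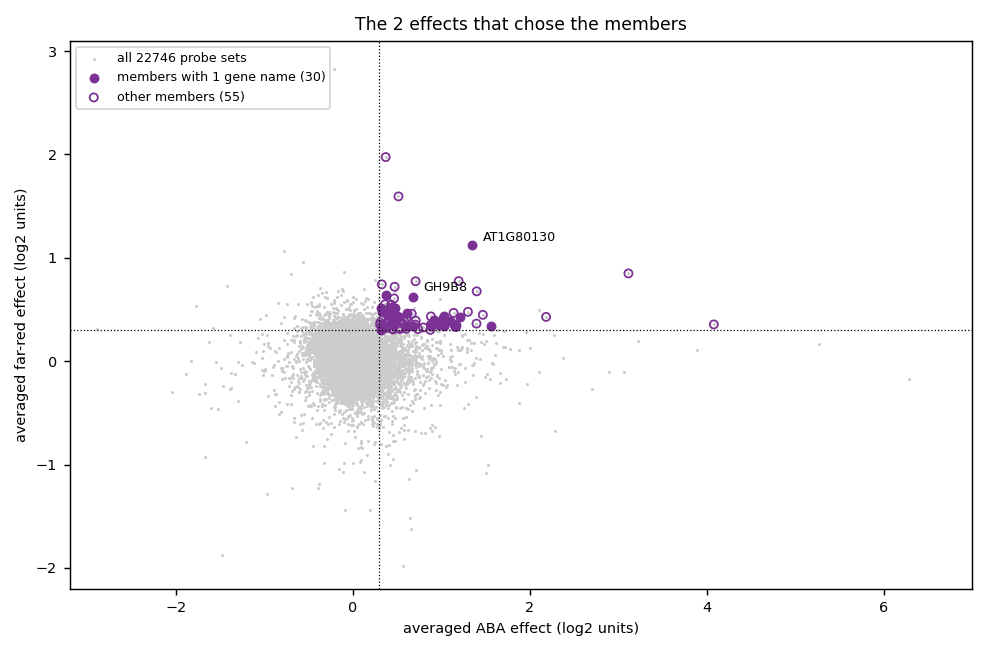
The averaged ABA effect (x axis, log2 units) against the averaged far-red effect (y axis, log2 units) of all 22746 probe sets, with the 30 members listed with 1 gene as filled points, the 55 other members as open points, and dotted lines at the threshold of 0.3. Most members sit just above the far-red threshold, and AT1G80130 is alone in reaching 1 on both axes.

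The lesser of the 2 effects was highest in AT1G80130. Its log2 level was 8.60, 8.90 and 8.63 in far-red with ABA, 7.45, 7.70 and 7.29 in far-red, 7.83, 7.54 and 7.73 in white light with ABA, and 6.08, 6.30 and 6.34 in white light. Every far-red with ABA array lay above all others and every white light array below them, while the groups with a single treatment overlapped each other. The level was 5.54-fold higher in far-red with ABA than in white light.

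Among the members with a symbol, the genes of the cell wall were GH9B8, EXLB1 and TBL26. GH9B8 is an endo-beta-glucanase of glycosyl hydrolase family 9, whose enzymes cut glucan chains of the wall, EXLB1 belongs to the expansin-like proteins, and TBL26 to the TRICHOME BIREFRINGENCE-LIKE family, members of which acetylate wall polysaccharides. GH9B8 read 6.76, 6.57 and 6.81 log2 units in far-red with ABA, 5.88, 6.06 and 6.38 in far-red, 6.43, 6.01 and 6.04 in white light with ABA, and 5.75, 5.18 and 5.32 in white light. The far-red with ABA arrays lay above and the white light arrays below all others, and the first group was 2.46-fold above the second. EXLB1 read 8.33, 8.44 and 8.59 in far-red with ABA, 7.45, 7.32 and 7.76 in far-red, 8.16, 7.92 and 8.23 in white light with ABA, and 7.13, 6.84 and 7.01 in white light. Its 4 groups did not overlap, with white light with ABA above far-red, and far-red with ABA was 2.75-fold above white light. TBL26 averaged 8.72 ± 0.13 in far-red with ABA, 8.54 ± 0.12 in far-red, 8.45 ± 0.24 in white light with ABA and 7.75 ± 0.42 in white light (SD, n = 3 each). In TBL26 the 3 treated groups overlapped one another, and all of their arrays lay above those of white light.

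Of genes listed under starch synthesis and breakdown, the members were APL3, APL4 and PWD (AT4G24450). APL3 and APL4 are large subunits of ADP-glucose pyrophosphorylase, the enzyme of the committed step of starch synthesis. AT4G24450 belongs to the glucan, water dikinases, a family with members that phosphorylate starch. A second locus listed as PWD, AT5G26570, was not a member, with an ABA effect of 0.27 and a far-red effect of 0.10. PWD below means AT4G24450, whose part in leaf starch was not examined. APL3 read 7.54, 7.77 and 7.71 log2 units in far-red with ABA, 6.72, 6.74 and 6.72 in far-red, 7.77, 7.51 and 7.28 in white light with ABA, and 6.12, 6.07 and 5.92 in white light. The groups with ABA overlapped each other and lay above far-red, which lay above white light. APL4 averaged 5.36 ± 0.34 in far-red with ABA, 4.97 ± 0.12 in far-red, 5.23 ± 0.31 in white light with ABA and 4.41 ± 0.28 in white light (SD, n = 3 each), with every treated array above the white light arrays. PWD averaged 6.35 ± 0.12 in far-red with ABA, 5.48 ± 0.11 in far-red, 6.10 ± 0.13 in white light with ABA and 5.03 ± 0.22 in white light (SD, n = 3 each). Relative to white light, far-red with ABA was 3.11-fold higher for APL3, 1.93-fold for APL4 and 2.50-fold for PWD.

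Of the transporters, SWEET13 exports sucrose for loading into the phloem, and AT1G68570 (NPF3.1) and AT1G59740 (NPF4.3) belong to the NRT1/PTR family, whose members carry nitrate, peptides or hormones. SWEET13 read 5.53, 5.70 and 5.51 log2 units in far-red with ABA, 4.45, 4.58 and 4.82 in far-red, 5.33, 5.28 and 5.35 in white light with ABA, and 3.94, 4.10 and 4.24 in white light. The 4 groups did not overlap. SWEET13 had an absent call on each of the 3 white light arrays, and far-red with ABA was 2.80-fold above their measured mean. In such cases a value below the dimmest signal called present on its array would have been raised to that signal. That signal lay at 2.5 to 2.8 log2 units, below every white light value concerned, so no value was raised. The fold is therefore the ratio of measured values, with white light called undetected. AT1G68570 (NPF3.1) read 9.97, 10.05 and 9.69 in far-red with ABA, 8.96, 9.20 and 8.94 in far-red, 9.57, 9.67 and 9.44 in white light with ABA, and 8.66, 8.69 and 8.40 in white light. Its 4 groups did not overlap either, in the same order as in SWEET13. AT1G59740 (NPF4.3) was 1.75-fold higher in far-red with ABA than in white light, and its treated arrays all lay above the white light arrays.

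MGL, methionine gamma-lyase, which breaks methionine down, averaged 6.46 ± 0.22 log2 units in far-red with ABA, 5.51 ± 0.20 in far-red, 6.33 ± 0.21 in white light with ABA and 4.95 ± 0.12 in white light (SD, n = 3 each). The groups with ABA overlapped each other and lay above both groups without it. OSM34, an osmotin-like protein of the thaumatin type, was the least even of the named members: it read 5.33, 4.85 and 6.08 in far-red with ABA, 4.32, 3.89 and 4.78 in far-red, 4.24, 4.69 and 6.38 in white light with ABA, and 4.14, 3.89 and 3.72 in white light. In white light with ABA, 1 array lay above all others, and far-red overlapped white light. White light gave no present call for OSM34 either, all 3 arrays being absent, and far-red with ABA was 2.83-fold above their measured mean.

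**Figure D2:**
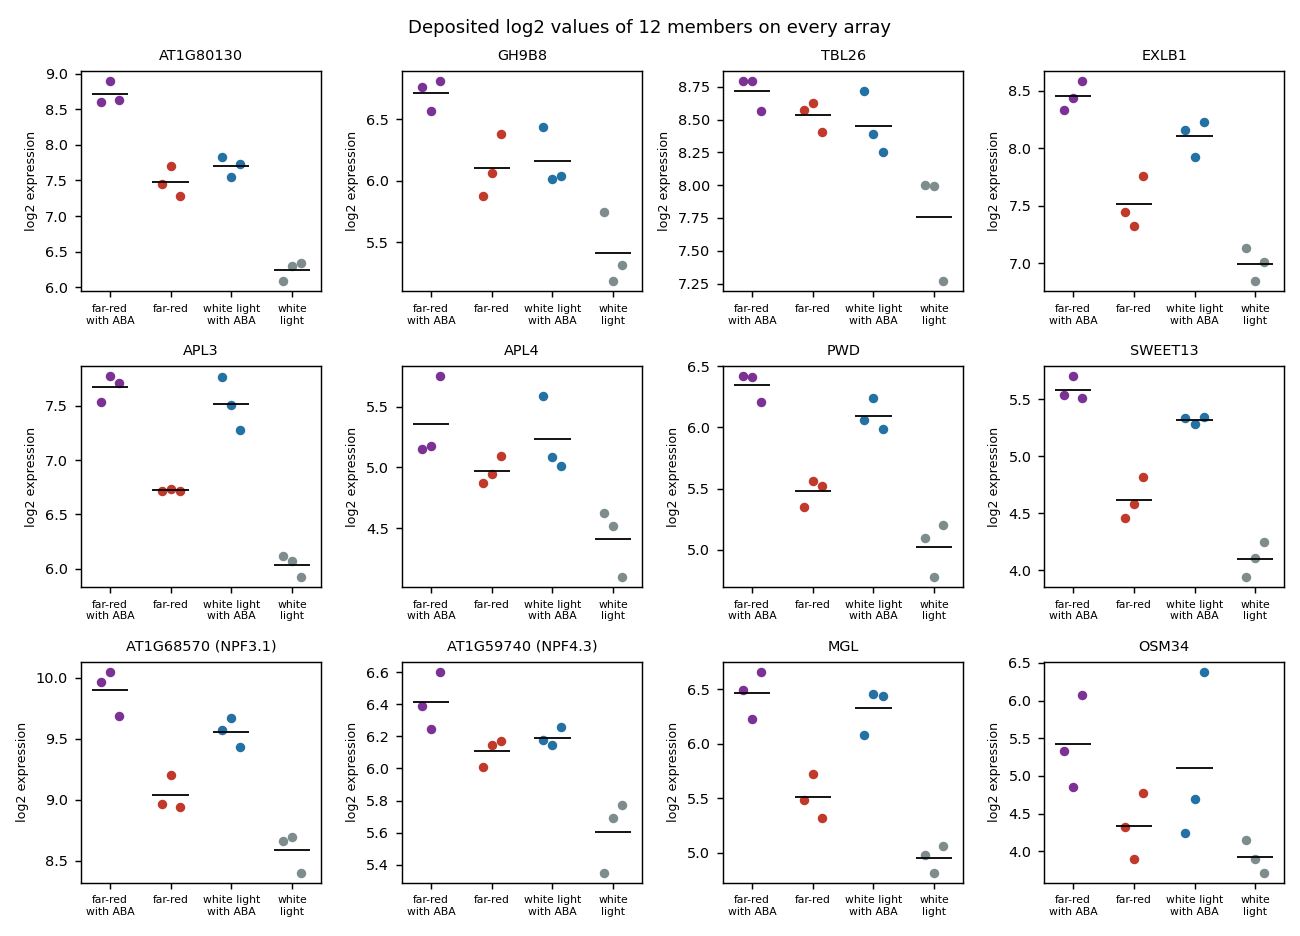
Deposited log2 expression (y axis, a separate scale for each gene) of 12 members on every array, 1 point per array, with a bar at the mean of each group of 3. White light is the lowest group in all 12; EXLB1, SWEET13 and AT1G68570 (NPF3.1) show 4 groups that do not overlap, and OSM34 shows wide spread within groups.

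The other loci listed with 1 gene, which RefSeq gives no symbol, also had their highest mean in far-red with ABA. AT1G10640 read 7.08, 7.21 and 7.27 log2 units in far-red with ABA, 6.51, 6.84 and 7.02 in far-red, 6.60, 6.76 and 6.88 in white light with ABA, and 6.43, 5.98 and 6.18 in white light, with no overlap at either end. Far-red with ABA was 1.92-fold above white light in AT3G16330, 1.83-fold in AT5G19875, 1.78-fold in AT2G46630 and 1.78-fold in AT3G54390. Among members listed with 1 gene, the ABA effect exceeded the far-red effect most in AT3G19620, at 1.56 against 0.34. This locus read 6.80, 7.08 and 7.03 in far-red with ABA, 5.63, 5.40 and 6.00 in far-red, 6.84, 7.03 and 6.85 in white light with ABA, and 5.05, 5.07 and 5.10 in white light, so that the groups with ABA overlapped each other and the far-red arrays stood above white light. The far-red effect exceeded the ABA effect most in AT1G26450, at 0.64 against 0.38. It read 5.52, 5.45 and 5.59 in far-red with ABA, 4.70, 5.49 and 5.33 in far-red, 4.69, 4.91 and 5.12 in white light with ABA, and 4.09, 4.77 and 4.65 in white light, and each neighbouring pair in that order overlapped. AT5G17760 read 6.95, 7.07 and 6.91 in far-red with ABA, 6.29, 6.47 and 6.44 in far-red, 6.70, 6.50 and 6.45 in white light with ABA, and 5.82, 6.16 and 5.70 in white light. Its far-red with ABA arrays lay above and its white light arrays below all others, as in AT1G10640. AT3G60420 was uneven under far-red light, with 6.37, 5.72 and 4.90 on its far-red arrays.

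Among the unnamed members, 255795_at had the highest lesser of the 2 effects. It read 8.74, 8.45 and 8.02 log2 units in far-red with ABA, 4.99, 6.04 and 5.22 in far-red, 7.80, 7.78 and 7.46 in white light with ABA, and 4.69, 4.38 and 4.26 in white light. It was 15.6-fold higher in far-red with ABA than in white light, and its 4 groups did not overlap. In 260408_at, 1 white light array (6.39) lay above every white light with ABA array, although the group means met the rule. The third in this order, 266743_at, had the largest standard error of the interaction among the members, 0.95. Both extremes of the group were also unnamed, and were picked out after their values were seen. The largest ABA effect, 4.08, was that of 250500_at, and the largest far-red effect, 1.97, that of 259417_at.

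Across the members, far-red with ABA had the highest group mean in 84 of 85 and white light the lowest in 84 of 85. The exception at the upper end, found after the values were seen, was 264400_at, at 7.63, 8.26 and 7.61 log2 units in far-red with ABA and 7.96, 8.30 and 7.31 in far-red, groups that overlapped. The exception at the lower end was 250500_at, whose far-red arrays (3.33, 3.73 and 3.80) overlapped those of white light (3.81, 3.59 and 3.48). The median of the member means was 6.94 in far-red with ABA, 6.18 in far-red, 6.55 in white light with ABA and 5.65 in white light. Far-red with ABA was 1.54-fold to 21.6-fold above white light, with a median of 2.02-fold, and 44 members reached 2-fold. In the 5 members that were absent on every white light array, the fold rests on white light values called undetected. The member with the highest fold, 250500_at, belongs to these.

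The rule was set on means, so single arrays could overlap. All arrays of far-red with ABA lay above all of white light in 83 of 85 members (14.3% of all probe sets did so), all of white light with ABA above white light in 64 (12.8%), and all of far-red above white light in 52 (14.8%). Both single treatments were above white light in this way in 47 members (3.24%). Far-red with ABA lay above far-red in 60 members (12.3%) and above white light with ABA in 51 (8.97%). It lay above all other groups in 38 (1.31%), white light lay below all other groups in 47 (2.70%), and 26 members had both (0.317%). The rule used these means, so nothing is read from the counts against those shares.

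**Figure D3:**
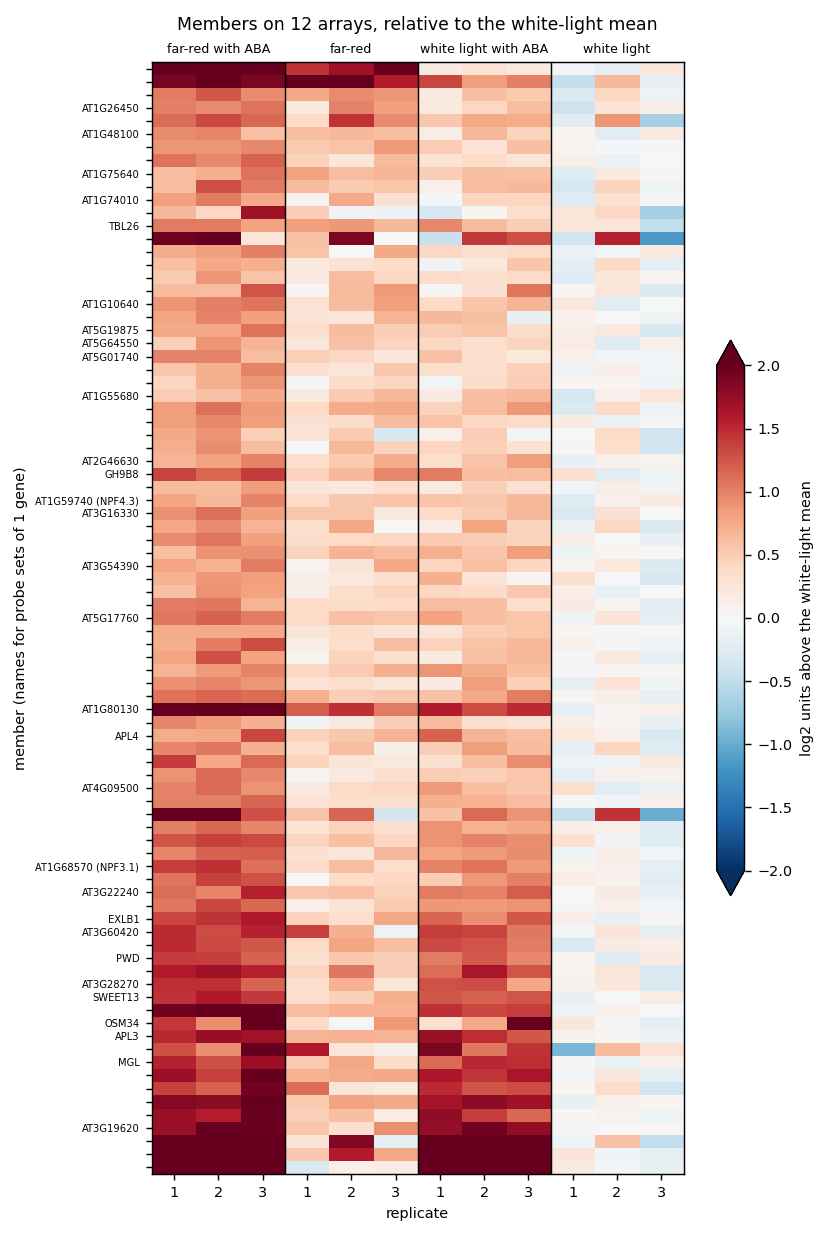
The 85 members (rows, ordered from the largest excess of the far-red effect at the top to that of the ABA effect at the bottom, with names for those listed with 1 gene) on the 12 arrays (columns), as log2 units above the mean of white light; the colour scale ends at 2. The far-red with ABA columns are darkest in nearly all rows, and the third white light array is the palest or bluest in many.

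The adjusted p of limma, with Benjamini-Hochberg adjustment over all probe sets, was under 0.05 in 74 members for the averaged ABA effect (8.64% of all probe sets were higher) and in 64 for the averaged far-red effect (5.30%), which the rule again fixes in part. For single differences, it was under 0.05 in 53 members for ABA in white light (4.02%), in 47 for ABA under far-red light (5.06%), in 39 for far-red without ABA (3.87%) and in 6 for far-red with ABA (0.0791%). The median differences over the members were 0.65 for ABA in white light, 0.57 for ABA under far-red light, 0.45 for far-red without ABA and 0.37 for far-red with ABA. Since these counts come from contrasts that chose the members, they describe them only.

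The interaction asks whether the 2 treatments together gave more or less than the sum of each alone on the log2 scale. No member passed the test, and no probe set did (0% of 22746); the smallest adjusted p from limma was 0.678 over the members and 0.400 over all. At an unadjusted p under 0.05 there were 13 of 85 members, of which 12 were below 0 and 1 above, where 6.44% of all probe sets had such a p, 4.19% below 0 and 2.26% above. An intensity-trended robust variance called 2 probe sets and no member. The members' interaction had a median of -0.10, with quartiles of -0.29 and 0.07, and lay below 0 in 55 of 85, while over all probe sets the median was -0.01 and 53.7% lay below 0. In the 72 members whose mean over all 12 arrays reached 5, a choice of level that is independent of the interaction and was added after seeing the data, the median was -0.11 and 49 lay below 0. The 30 members listed with 1 gene had a median of -0.19 with 27 below 0, and the 55 others a median of -0.01 with 28 below 0, a split that was not tested. The 95% interval included 0 in 72 members, and the median standard error of a member was 0.19, against 0.14 over all. The number of arrays limits this precision.

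The lowest interactions of members listed with 1 gene were those of AT3G19620, APL3 and TBL26. That of AT3G19620 was -0.54 ± 0.18 (SE; 95% interval -0.92 to -0.16; limma adjusted p = 0.736), that of APL3 -0.53 ± 0.16 (-0.86 to -0.20; adjusted p = 0.678) and that of TBL26 -0.52 ± 0.24 (-1.02 to -0.01; adjusted p = 0.765). In these genes the level with both treatments lay near the level with the stronger one alone: APL3 averaged 7.67 in far-red with ABA and 7.52 in white light with ABA. That closeness follows in part from picking the lowest interactions, none of which passed the test, so nothing further is read from it. Among the same 30, the highest were 0.22 ± 0.25 in AT1G74010, 0.13 ± 0.17 in AT5G01740 and 0.03 ± 0.19 in AT4G09500, with adjusted p of 0.918, 0.933 and 0.992. AT4G09500 changed sign in 5 of the 12 fits that left out 1 array. AT1G80130, the member with both effects above 1, had -0.23 ± 0.17 (adjusted p = 0.858). The extremes over all 85, picked out after their values were seen, were unlisted probe sets, 264400_at at -1.09 ± 0.38 and 262832_s_at at 0.79 ± 0.44.

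The members' median interaction and the count below 0 varied with scaling and with single arrays of several groups. Centring each array on its median moved the interaction of all probe sets to a median of 0.07 and that of the members to -0.02, with 48 of 85 below 0, a shift that is the same for every probe set. Quantile normalization gave -0.07 in the members, with 50 below 0, and -0.00 over all. Without the second white light array the members' median was -0.16, with 60 below 0, and without the third it was -0.01, with 43 below 0. Without the second far-red array it was -0.05, with 49 below 0, and without the first far-red array -0.14, with 60 below 0. Over all 12 such fits the median stayed between -0.16 and -0.01. On the second white light array 61 of 85 members lay above their group mean, by 0.15 on average over the members, and on the third 27 did, with an average of -0.12. On the first far-red array 18 of 85 lay above it, with an average of -0.08, and on the second 54 did, with an average of 0.08.

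For comparison, 454 probe sets met the ABA and level thresholds with a far-red effect within 0.1 of 0, and 181 met the far-red and level thresholds with an ABA effect within 0.1 of 0. Their median interactions were 0.01 and -0.24, with 45.2% and 90.1% below 0. The members, at 64.7%, lay between the 2 classes. Centring each array on its median, which shifts all probe sets alike, put 56.5% of members, 29.1% of the first class and 79.0% of the second below 0. In the class raised by far-red light alone, the far-red difference had a median of 0.25 with ABA and 0.48 without, and in the members it was 0.37 with ABA and 0.45 without. The differences between classes were not tested.

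**Figure D4:**
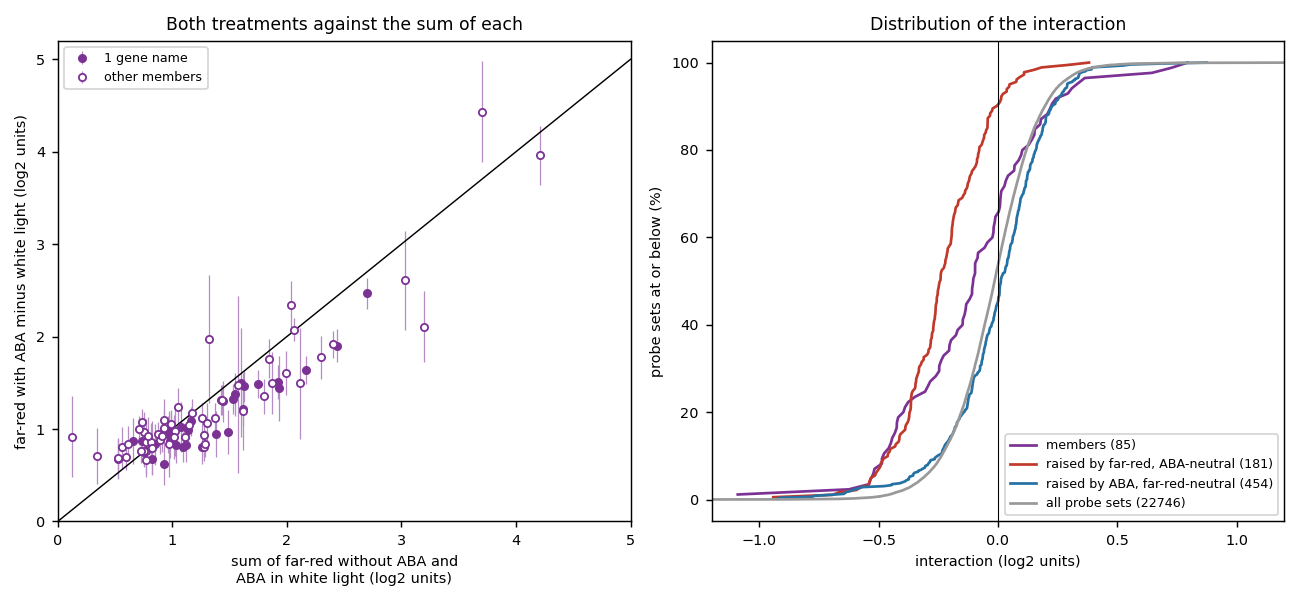
Left: log2 difference of far-red with ABA from white light (y axis) against the sum of the 2 single differences (x axis) for each member, with error bars of 1 standard error of the interaction and the line of equality. Right: cumulative share (y axis, %) of the interaction (x axis, log2 units) in the 85 members, the 181 probe sets raised by far-red light alone, the 454 raised by ABA alone and all 22746; 55 of 85 members lie below 0.

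The median residual SD between arrays of a group was 0.20 log2 units in the members, 0.16 in the class raised by far-red light alone, 0.14 in the class raised by ABA alone and 0.12 over all probe sets with a highest group mean of 5 or more. Of the 85 members, 66 (77.6%) were called present on all 12 arrays, against 87.3% of the far-red class, 90.7% of the ABA class and 91.8% of all probe sets at that level. These differences were not tested. Of the members, 84 were called present on all 3 far-red with ABA arrays. White light arrays were all called absent in 5 members. Of the 85 probe sets, 3 are marked by the array's maker as shared between genes. The nearest pair of named members was 165 protein-coding genes apart on a chromosome.

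Genes of the pathways themselves were taken from 19 lists of 336 symbols, of which 48 distinct genes were measured under a name; 0 of these were members, in part because of the genes left out by name. WES1, an auxin-conjugating enzyme gene of the auxin list, met the thresholds with an ABA effect of 0.70 and a far-red effect of 0.52 and was left out, and BIM1, also named in the rule, missed the far-red threshold. Of the 48, 14 rose and 3 fell with ABA averaged over light (8.64% and 8.57% of all probe sets), and 5 rose and 6 fell with far-red light averaged over ABA (5.30% and 3.98%). Of 7 measured ABA-responsive targets, 6 rose with ABA: COR15A, which encodes a chloroplast protein of cold and drought, by 3.07 (limma adjusted p = 1.68e-09), and the dehydrin LTI30 by 2.70 (adjusted p = 1.34e-07). None of the 7 rose with far-red light; COR15B fell by 1.08 (adjusted p = 0.000692) and TIL, a lipocalin, fell by 0.27 (adjusted p = 0.00736). The autophagy list held 10 measured genes, 4 of which rose with ABA and 4 of which fell with far-red light. Of 3 measured shade-induced targets, 2 rose with far-red light. IAA29, an auxin-response repressor gene, rose by 0.86 with far-red light (adjusted p = 2.3e-05) and had an ABA effect of -0.10. BIM1, a transcription factor gene of brassinosteroid signalling, rose by 0.27 with far-red light (adjusted p = 0.0213) and by 0.31 with ABA (adjusted p = 0.00387). The lists of ABA receptors, ABA transcription factors and FHY3 and FAR1 signalling had 0 genes measured under a name.

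Relatives of the named members, looked up after the members were known and counted where measured under a name, mostly did not share both effects. Of 4 large subunits of ADP-glucose pyrophosphorylase, 2 were measured under a name, APL3 and APL4, and both were members. APL1 and APL2 could not be assessed. Of 16 measured SWEET genes, 1 was a member; SAG29 (SWEET15), a sugar transporter gene of senescence, had an ABA effect of 1.96 and a far-red effect of -0.22. Of 15 measured genes of glycosyl hydrolase family 9, GH9B8 alone had either effect at 0.3 or more. In the expansin-like family, 1 of 5 was a member, and EXLA1 had an ABA effect of 0.81 and a far-red effect of -0.69. Of 23 TBL genes 1 was a member, and TBL37 had an ABA effect of 0.55 and a far-red effect of 0.24. Of 11 NPF genes 2 were members. By symbol, 47 loci matched the list for starch synthesis and breakdown, of which 7 were measured under a name and 3 were members. Several of the symbols belong to more than 1 locus, so the 47 can include loci outside starch metabolism. Among the other measured loci, SBE2.2 had an ABA effect of 0.33 and a far-red effect of 0.11, and DPE1 had 0.14 and -0.25. Of 22746 probe sets, 1325 had an ABA effect and 710 a far-red effect of 0.3 or more.

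**Figure D5:**
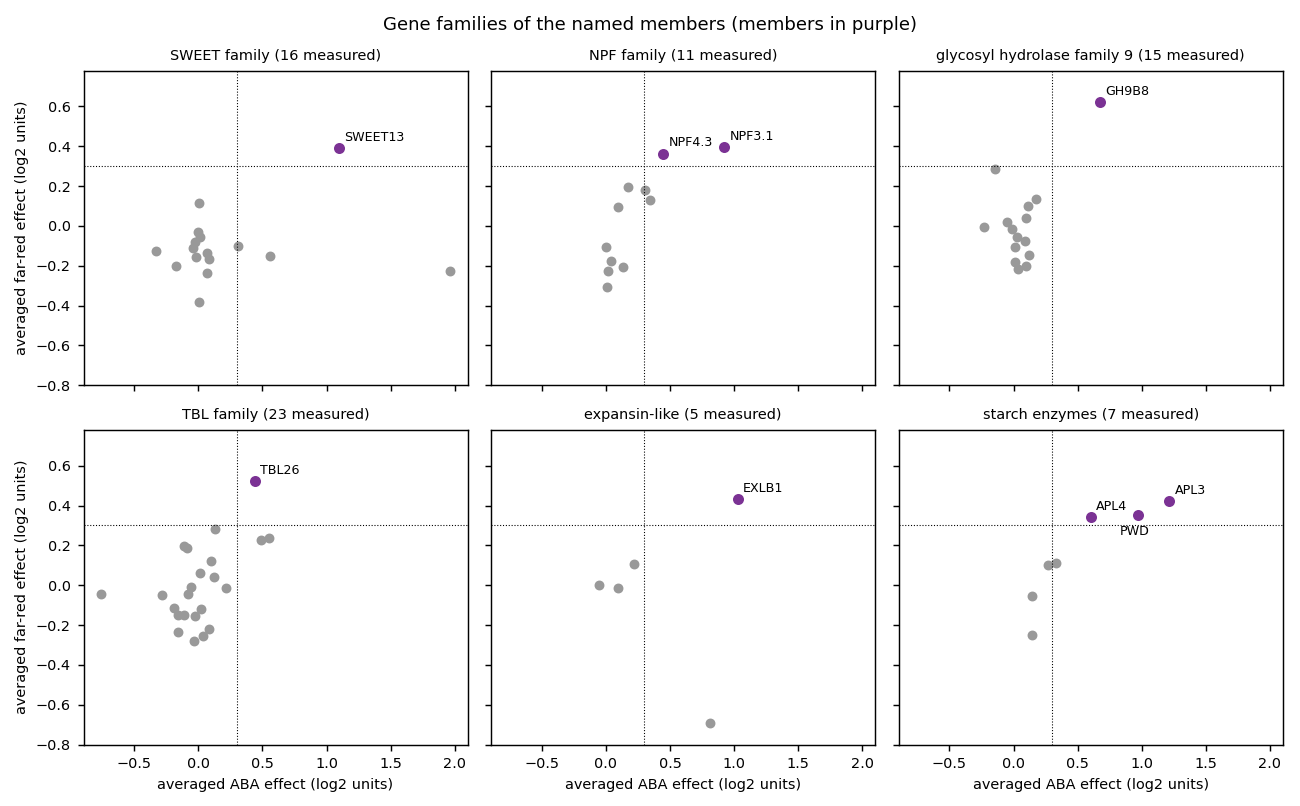
Averaged ABA effect (x axis, log2 units) and averaged far-red effect (y axis, log2 units) of the genes measured under a name in 6 gene families or pathways of the named members. Members are in purple and labelled, with dotted lines at 0.3, and relatives not measured under a name are not shown. The plotted relatives of SWEET13, GH9B8, TBL26 and EXLB1 lie outside the upper right corner.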

How the data were processed

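Total RNA of aerial parts was hybridised to 1-colour Affymetrix arrays, 3 per group by the sample titles. The log2 expression values that the authors deposited came from robust multi-array averaging with the affy package, and the deposited detection calls (present, marginal, absent) from MAS5, per the submitters' processing notes; their versions and a genome build: not given in the sources used here. Averaging sets arrays to a common scale and compresses low values. The file held 22810 probe sets; 64 controls were left out.

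Names came from the platform's annotation: 13513 probe sets had 1 gene, 503 several and 8730 were unlisted. Of the first, 13436 matched RefSeq (TAIR10.1). Tests used limma 3.58.1 in R 4.3.3, with 4 group means fitted over the 12 arrays, eBayes and Benjamini-Hochberg adjustment, two-sided, threshold 0.05. The fit was checked on simulated data. Alternatives were other scalings, a detection filter, a robust variance, a replicate block, other thresholds, each array left out and, added after seeing the data, a level threshold on the mean of all arrays.

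The members and lists were chosen with earlier results of these data known. The text names members listed with 1 gene: the 20 with the highest lesser effect, the 3 highest and 3 lowest interactions, those beside each threshold, those with the most unequal effects, and up to 4 per function. Figures were drawn with matplotlib 3.10.9.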

Additional observations from a re-analysis of the deposited data

How the results depend on the processing

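The number of members, 85, was 55 with each array centred on its median, all 55 of them shared, 256 with both effects at 0.2 or more and 7 with both at 0.5 or more, and lay between 80 and 120 when 1 array was left out, 120 without the second white light array. The interaction called 0 probe sets, 2 with an intensity-trended robust variance, and 0 to 2 with 1 array left out. No member was called under any of 17 alternatives. The members' median interaction was -0.10 with the replicate block, as without it. Each group holds every replicate number once, so the block leaves the estimates unchanged by construction. Only the p-values could change: 16 of 85 members had an unadjusted limma p under 0.05 with the block, against 13 without it. With 1 array left out the median was -0.16 to -0.01, 43 to 60 members were below 0, and 7 to 16 had an unadjusted p under 0.05. With the members of mean 5 or more over all arrays, chosen after seeing the data, 11 of 72 did. Same-numbered arrays had correlations of deviations between -0.05 and 0.27, over 0.1 in 8 of 18 pairs. Since not every pair was over 0.1 and the labels name no shared batch, the fit has no block, although 11 of 12 arrays correlated best with their own number, a hint of pairing from the data. The replicate block also called 0 probe sets, with a smallest adjusted p of 0.0798 in limma, against 0.400 without it. Members averaged below the group mean on the array numbered 1 and above it on the array numbered 2 in all 4 groups. The listed genes higher for far-red light, 5, were 3 to 6 with 1 array left out. The interaction of AT4G09500 was -0.15 to 0.14 and that of AT5G17760 -0.21 to 0.012 in those fits. A planned search of promoters for motifs was not run, because no promoter sequences were at hand. The number of arrays and the unnamed 54 members limit what can be read from the group.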
